A study of Homo sapiens with 6 samples.

Results

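Keratins are the intermediate filament proteins of epithelial cells, and 10 keratin genes were examined in LS174T, a cell line from a human colorectal adenocarcinoma with goblet-like character according to its labels. The genes are KRT7, KRT8, KRT10, KRT15, KRT17, KRT18, KRT19, KRT20, KRT23 and KRT80, taken by name from the 58735 named genes of the deposited count table. All 10 had counts in every library and passed the filter on low counts, as did 15351 genes in all. Poly(A) RNA had been sequenced from 3 wild-type LS174T libraries and from 3 LS174T libraries whose genotype label is FXYD3 knockout. FXYD3 is a small membrane protein that binds the sodium pump. The labels give no treatment, no description of the edit, and do not state if replicate libraries stem from separate cultures or from 1 clone. The p-values therefore measure only how far these libraries differ, and that spread may be technical.

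A keratin filament is built from pairs of a type I (acidic) and a type II (basic to neutral) chain. The members comprise 3 type II genes (KRT7, KRT8 and KRT80) and 7 type I genes. Keratins 8 and 18 are the founding pair of simple epithelium and, with keratins 19 and 20, form the keratin network of the intestinal lining. Keratins 10, 15 and 17 are better known from skin and its appendages. Keratin genes lie in a cluster on chromosome 12, which holds the type II genes and KRT18, and a cluster on chromosome 17, which holds the other type I genes.

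Keratin genes resemble one another in the coding sequence of the central rod, the part through which 2 chains coil around each other, and this bears on how well short reads tell them apart. By the transcripts of GENCODE release 29 (GRCh38), KRT80 was largely distinct. Of its 1307 coding windows of 50 bases, 16 also occurred in another keratin gene, led by KRT8, and of its 1257 windows of 100 bases, 0 did. KRT10, KRT20 and KRT23 shared 0 windows of 50 bases with any other keratin transcript, KRT15 1.29% and KRT19 2.09%. The abundant pair was far less distinct: 58.0% of the 50-base windows of KRT18 and 48.4% of those of KRT8 also occurred in another keratin gene or pseudogene, as did 17.2% for KRT17 and 13.5% for KRT7. At 100 bases these shares were 20.4% for KRT18, 8.89% for KRT8, 0.418% for KRT17 and 9.71% for KRT7. Windows were searched on both strands. At 100 bases KRT8 was the only other gene for KRT18, and KRT7-AS the only one for KRT7. Both pairs overlap on opposite strands, so windows shared within them do not measure resemblance alone.

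The libraries held 15417232 to 19453217 counts in named genes. FXYD3 itself had 54, 91 and 55 counts in wild type against 79, 131 and 85 (log2 fold change 0.54, 95% interval 0.12 to 0.95, edgeR adjusted p = 0.0522), and it passed the test as higher in 5 other settings. The label was thus not borne out by a lower FXYD3 transcript, and directions below compare the libraries by their labels. Levels are given as CPM, in which each library's counts are divided by its total after TMM scaling, an adjustment for library composition, and expressed on a common scale. A fold change above 1, or a log2 fold change above 0, means a higher level in the knockout-labelled group. A gene is called at an edgeR adjusted p below 0.05, with adjustment over all 15351 genes.

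Levels of different genes were compared per kb of the deposited gene length. KRT8 stood first, with 1005 ± 67.1 CPM per kb in wild type (SD, n = 3), and was the gene with rank 4 among all named genes by wild-type CPM. KRT18 had 573 ± 38.9 and KRT19 528 ± 47.2 CPM per kb, and their wild-type ranges overlapped. KRT17 (11.0 ± 1.71 CPM per kb) and KRT10 (10.9 ± 1.35) followed with overlapping ranges, and then KRT80 (6.67 ± 0.615). KRT7 had 1.41 ± 0.132 CPM per kb and KRT20 1.14 ± 0.217, again with overlapping wild-type ranges. KRT23 (0.557 ± 0.0802) and KRT15 (0.419 ± 0.0485) were lowest. The order depends on the length used. Per kb of 1 principal GENCODE transcript, a choice made after seeing the data, wild-type KRT15 had 1.24 and KRT20 1.21 CPM. By that length KRT17 had 22.7 and KRT10 11.0 CPM per kb. KRT8, KRT18 and KRT19 together made up 98.96 to 99.07% of the members' counts in wild type and 98.76 to 98.85% in the knockout-labelled libraries. KRT20, the keratin used to recognise gut epithelium, was therefore among the least abundant members in this line.

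**Figure D1:**
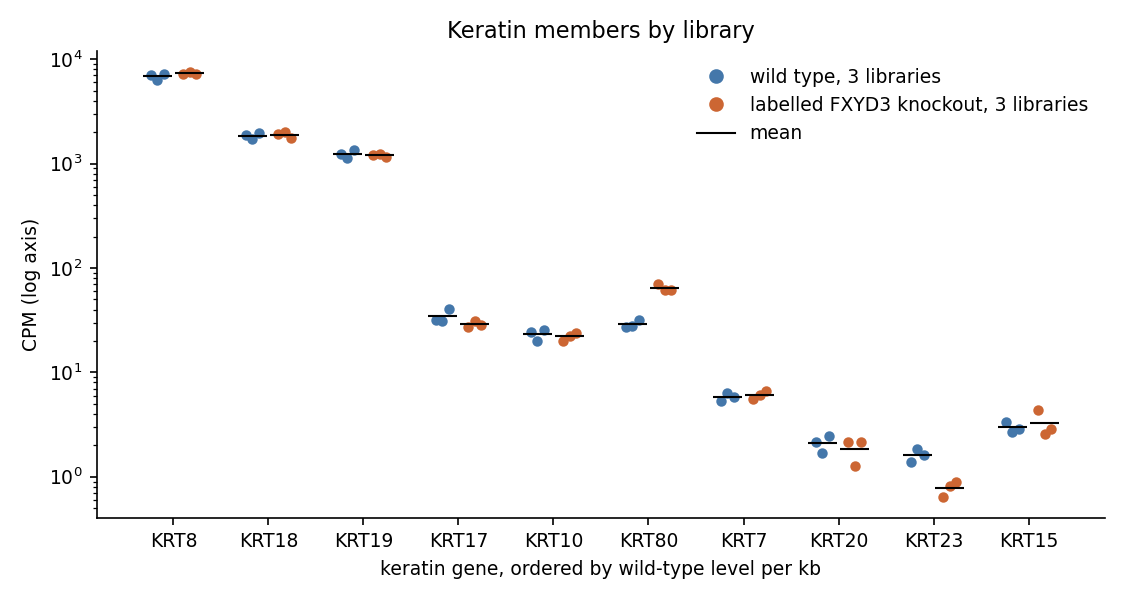
CPM on a log axis for each of the 10 keratin genes in each library, with wild-type libraries as blue points, libraries labelled FXYD3 knockout as orange points and group means as black lines. KRT80 lies at 27.4 to 32.1 CPM in wild type and 61.9 to 70.2 CPM in the knockout-labelled libraries, KRT23 at 1.39 to 1.85 and 0.645 to 0.892 CPM, while the points of KRT8, KRT18 and KRT19 lie side by side in both groups.

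The abundant simple-epithelium keratins did not pass the test in either direction. KRT8, the type II chain that pairs with keratin 18, had 7099, 6393 and 7261 CPM in wild-type libraries 1 to 3 and 7229, 7558 and 7160 CPM in knockout-labelled libraries 1 to 3. Wild-type library 2 was the lowest, and the groups overlapped. The fold change of KRT8 was 1.06 (95% interval 0.962 to 1.16, edgeR adjusted p = 0.427). In such bulk libraries, fewer cells that express a gene and less RNA per cell cannot be told apart.

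KRT18 had 1865, 1708 and 1956 CPM in wild type and 1923, 2008 and 1768 CPM in the knockout-labelled libraries. Here too the groups overlapped, with a fold change of 1.03 (95% interval 0.939 to 1.13, adjusted p = 0.688). KRT19, the smallest keratin, which lacks most of the tail domain of other type I chains, had 1236, 1123 and 1344 CPM against 1210, 1234 and 1153 CPM. Its fold change was 0.972 (95% interval 0.886 to 1.07, adjusted p = 0.699). Over these 3 genes the intervals reached at most 1.16-fold upward and at least 0.886-fold downward.

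KRT80 rose. This type II keratin lies at the outer end of the chromosome 12 cluster (ENSG00000167767; GRCh38 chromosome 12, 52168996 to 52192000, minus strand) and is known from differentiated epithelia, where its filaments lie near desmosomes. It had 27.4, 27.6 and 32.1 CPM in wild type and 70.2, 61.9 and 62.0 CPM in the knockout-labelled ones. Every knockout-labelled library lay above every wild-type library. KRT80 was 2.23-fold higher (log2 fold change 1.16, SE 0.08, 95% interval 0.99 to 1.32, edgeR adjusted p = 1.36e-11), and it was also called against a minimum change of 1.5-fold. Per kb of deposited length, KRT80 lay below KRT10 and KRT17 in wild type. In the knockout-labelled libraries KRT80 had 14.9 ± 1.10 CPM per kb, above KRT10 (10.3 ± 0.883) and KRT17 (9.20 ± 0.658). With principal transcript lengths KRT80 had 16.8 CPM per kb there, above KRT10 (10.4) but still below KRT17 (19.0). Only KRT80 and KRT23 among the members were called with a log2 fold change beyond 1 in size, as were 6.10% of all tested genes.

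KRT23 was called lower at a very low level. This type I keratin, described in colon and other gut tumours (ENSG00000108244; chromosome 17, 40922696 to 40937634, minus strand), had 24, 33 and 26 counts in wild type against 10, 16 and 15. As levels these are 1.39, 1.85 and 1.61 CPM against 0.645, 0.817 and 0.892 CPM, and all wild-type libraries lay above all knockout-labelled ones. For KRT23 edgeR gave a log2 fold change of -1.03 (SE 0.35, 95% interval -1.76 to -0.30, adjusted p = 0.0348). KRT23 was not called by DESeq2 (adjusted p = 0.133), with no filter on low counts (0.0607), with replicate number as a block (0.0575), or whenever 1 of the 6 libraries was omitted (adjusted p 0.0593 to 0.113), while the log2 fold change stayed between -1.13 and -0.92.

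KRT17, a keratin of basal and appendage epithelium that is induced in wounded skin, came close to the threshold. It had 31.6, 31.2 and 40.7 CPM in wild type and 27.0, 31.1 and 28.3 CPM in the knockout-labelled libraries. The groups were separated by a narrow gap, from 31.1 to 31.2 CPM, and wild-type library 3 was the highest. For KRT17 edgeR gave a log2 fold change of -0.26 (SE 0.10, 95% interval -0.46 to -0.06), adjusted p = 0.0572. The test was passed with no filter on low counts (adjusted p = 0.0223), without wild-type library 1 (0.0452) and without wild-type library 2 (0.00575), and without wild-type library 3 the log2 fold change was -0.13 (adjusted p = 0.398).

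**Figure D2:**
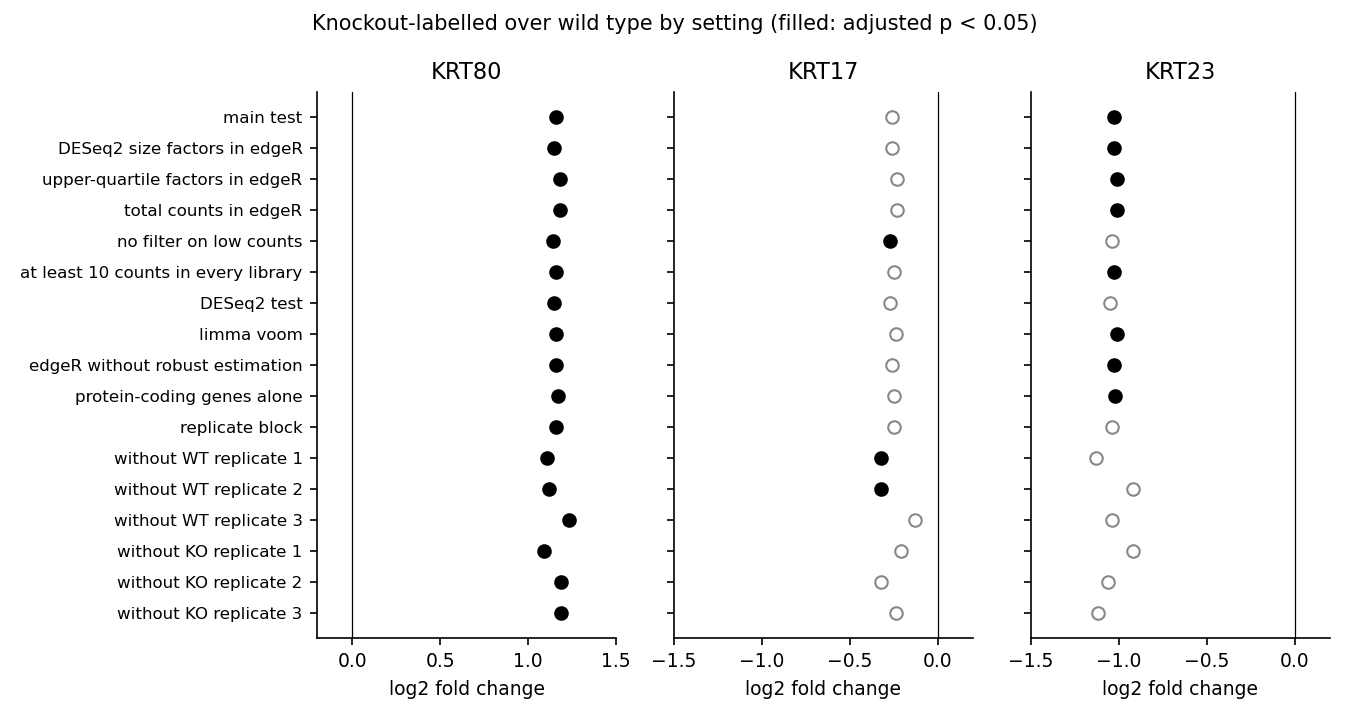
Log2 fold change of KRT80, KRT17 and KRT23 (x axes, with 0 marked by a line) under the main edgeR test and 16 other settings (y axis); filled points have an adjusted p below 0.05. KRT80 stays between 1.09 and 1.23 and is filled throughout, KRT23 stays between -1.13 and -0.92 and is open in 9 settings, and KRT17 lies between -0.32 and -0.13 and is filled in 3.

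The remaining 4 members were not called. KRT10, the type I keratin of the upper epidermis, had 24.4, 20.0 and 25.5 CPM in wild type and 20.2, 22.4 and 24.0 CPM in the knockout-labelled libraries. Its log2 fold change was -0.07 (95% interval -0.28 to 0.14). KRT7, a type II keratin of ducts and glands, had 5.26, 6.34 and 5.77 CPM against 5.61, 6.08 and 6.60 CPM (log2 fold change 0.08, 95% interval -0.25 to 0.41). In both genes the groups overlapped.

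KRT20, found in differentiated cells of the intestinal lining, had 37, 30 and 40 counts in wild type and 33, 25 and 36 counts in the knockout-labelled libraries. Its log2 fold change was -0.19 with a 95% interval from -0.80 to 0.42, so that changes up to 1.74-fold downward or 1.33-fold upward were not resolved at this depth. KRT15, a keratin of basal cells and of the hair follicle bulge, had 58, 48 and 46 counts against 68, 50 and 48 (log2 fold change 0.13, 95% interval -0.37 to 0.63). Knockout-labelled library 1 was the highest of the 6 for KRT15, at 4.39 CPM. Without it the log2 fold change was -0.13.

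Of the 10 members, 1 was called higher and 1 lower. Over all tested genes 24.3% were called, 12.0% higher and 12.4% lower, so the members' count does not exceed the background. The median log2 fold change was 0.00 for the members and 0.00 for all tested genes, and the median absolute log2 fold change was 0.10 for the members and 0.17 for all tested genes. The ranges of the 2 groups did not overlap for 3 members (KRT80, KRT23 and KRT17), beside 37.2% of all tested genes. The 3 type II members had a median log2 fold change of 0.08 and the 7 type I members one of -0.07.

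The make-up of the keratin pool was described as each member's share of the summed counts per kb of the 10 members. KRT8 held 47.0 ± 0.569% in wild type and 48.2 ± 0.721% in the knockout-labelled libraries (SD, n = 3 each). KRT18 held 26.8 ± 0.141% and 26.8 ± 0.754%, and KRT19 24.7 ± 0.522% and 23.3 ± 0.208%. The share of KRT80 went from 0.312 ± 0.0194% to 0.675 ± 0.0556%. Type II over type I members gave ratios of 0.918, 0.907 and 0.879 in wild type and 0.941, 0.949 and 0.992 in the knockout-labelled libraries; the ratios were all higher in the second group, and as a score over the members they were not tested. For the partner chains alone, KRT8 over KRT18 gave 1.78, 1.75 and 1.74 against 1.76, 1.76 and 1.89, with an exact two-sided permutation p of 0.40, where 3 libraries against 3 cannot give less than 0.10.

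The absolute ratios depend on gene length. The deposited length of KRT8 is 6881 bases, the union of the exons of 17 transcripts, whereas its principal GENCODE transcript has 1755 bases; for KRT18 these are 3218 and 1420 bases. With the principal lengths, an alternative chosen after seeing the data, KRT8 over KRT18 was 3.04 in wild type and 3.12 in the knockout-labelled libraries. KRT8 and KRT18 are neighbours on opposite strands, their annotated spans overlap by 1084 bases and their exons share 525 bases. The counter's strand setting is not given in the sources used here, so reads from that overlap cannot be told apart.

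Processed copies of KRT8 and KRT18 are scattered over the genome, and reads could be split between a gene and its copies. The table held 50 pseudogenes named after KRT8, of which 17 had counts, and 67 named after KRT18, of which 15 had counts. The KRT8 pseudogenes carried 0.316 to 0.402% of the counts of KRT8 and its copies together in each library, and the KRT18 pseudogenes 0.0464 to 0.108%. Of the 4 keratin pseudogenes that passed the filter, KRT8P12 was called higher, with 99, 161 and 116 counts in wild type and 154, 198 and 162 in the knockout-labelled libraries. In CPM the groups were separate (log2 fold change 0.43, SE 0.15, edgeR adjusted p = 0.0344), but DESeq2 did not call it (adjusted p = 0.141), nor did edgeR without wild-type library 1 or 3 or without any one of the knockout-labelled libraries. KRT8P3, the most abundant copy, had 242, 227 and 227 counts against 199, 253 and 200 (adjusted p = 0.514). Copies of KRT17 summed to 14 counts over the wild-type and 32 over the knockout-labelled libraries, at most 2.88% of the counts of KRT17 and its copies in a library.

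Genes overlapping KRT7 and KRT10 had counts that were not negligible beside these members, while the gene overlapping KRT80 had few. KRT7 overlaps KRT86 on the same strand and KRT87P and KRT7-AS on the opposite strand, with 123, 26 and 25 counts over the wild-type and 155, 57 and 18 over the knockout-labelled libraries, where KRT7 had 297 and 317. KRT10 overlaps TMEM99 on the opposite strand, which had 146, 137 and 160 counts in wild type and 152, 196 and 119 in the knockout-labelled libraries (adjusted p = 0.846). KRT10 itself had 423, 357 and 411 counts against 313, 438 and 403. KRT80 overlaps the antisense LINC00592, which had 5 counts over the wild-type and 3 over the knockout-labelled libraries.

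Elsewhere in the chromosome 12 cluster other keratin genes were higher too, at low levels, while the nearest tested genes on either side of KRT80 were not called (ATG101, log2 fold change 0.01, adjusted p = 0.936; KRT7, 0.08, adjusted p = 0.783). Of the 45 protein-coding keratin genes outside the 10 members, 9 passed the filter, 4 were called higher (KRT4, KRT79, KRT5 and KRT84) and 1 lower (KRT75), and all 5 lie in the chromosome 12 cluster. The median log2 fold change of the 9 was 0.61, beside 0.00 for all tested genes. Among all tested genes 12.0% were called higher and 12.4% lower. KRT79 and KRT84 passed the filter only through their counts in the knockout-labelled libraries. The counts and the median thus include genes selected for being high there. KRT4, a type II keratin of the oesophagus and other moist squamous linings, rose from 4.18 ± 0.651 to 14.2 ± 1.12 CPM, a log2 fold change of 1.77 (SE 0.14, edgeR adjusted p = 2.25e-10). Every knockout-labelled library lay above every wild-type library for KRT4.

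KRT79, which stands beside KRT4 in the cluster, had 1, 0 and 0 counts in wild type against 20, 14 and 14 (edgeR adjusted p = 3.6e-05). The ratio of the scaled counts was 47.4, with an exact 95% interval of 8.12 to 1912 that covers counting error only. KRT5, the type II keratin of basal squamous cells, had 16, 13 and 17 counts against 35, 52 and 47 (log2 fold change 1.51, SE 0.31, adjusted p = 0.000605). KRT84, a hair keratin, had 7, 3 and 13 counts against 30, 13 and 24; the groups overlapped, and the call (adjusted p = 0.0267) was lost under DESeq2 and without wild-type library 1 or 2 or knockout-labelled library 1 or 3. KRT75, a keratin of the hair follicle, fell from 4.83 ± 0.298 to 2.94 ± 0.421 CPM, a log2 fold change of -0.71 (SE 0.20, adjusted p = 0.00994).

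The other 4 keratins tested, KRT81, KRT86, KRT6B and KRT13, were not called, with log2 fold changes of 0.61, 0.31, -0.40 and -0.03. KRT81 and KRT86 are close relatives of each other and of KRT87P, and KRT6B of KRT6A and KRT6C, so their separate counts are uncertain. In the chromosome 12 cluster (GRCh38, 52168996 to 52952901) 12 of 27 keratin genes were tested, 5 were called higher and 1 lower. In the chromosome 17 cluster (40654665 to 41624842) 7 of 28 were tested, 0 were called higher and 1, KRT23, lower. For the chromosome 17 cluster edgeR gave 0 higher genes at an unadjusted p below 0.05 as well, and DESeq2 and limma voom called 0 higher. The chromosome 12 count includes KRT79 and KRT84, which passed the filter only through the knockout-labelled libraries. Genes below the filter are in neither count. Among those, KRT31, KRT32 and KRT36 of the chromosome 17 cluster had more counts in the knockout-labelled libraries, as given at the end. The difference between the clusters was not tested.

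**Figure D3:**
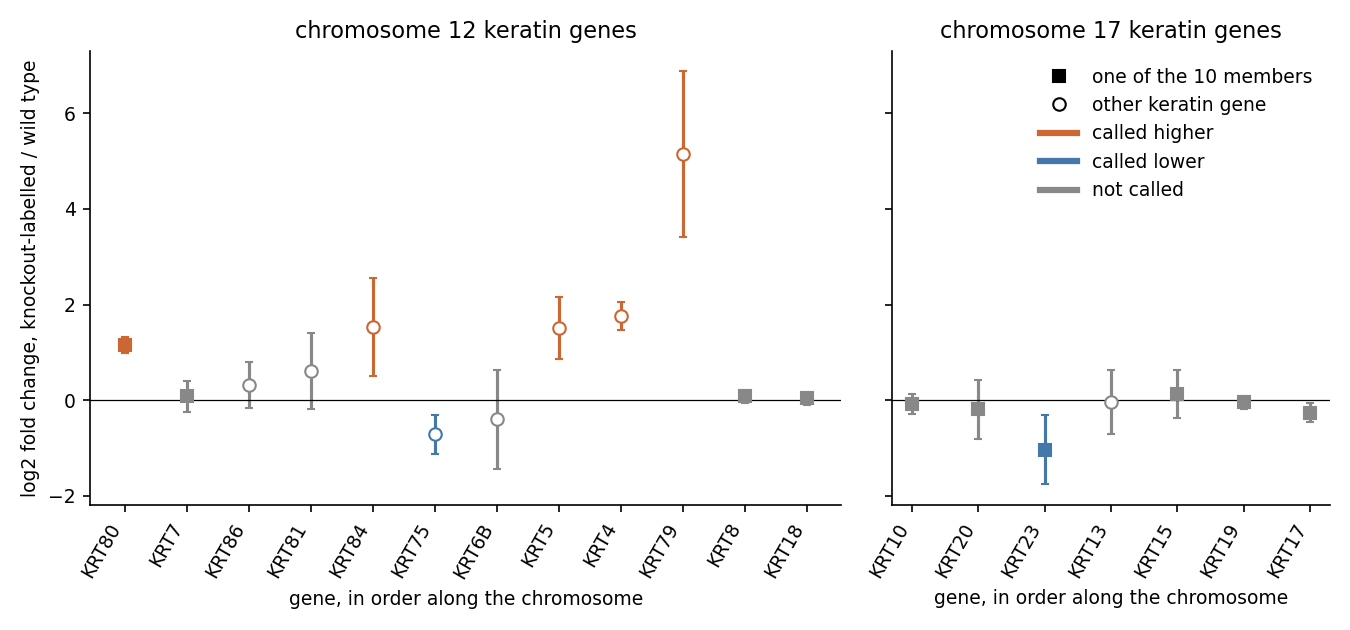
Log2 fold change with its 95% interval (y axis) for every tested keratin gene in the order of the chromosome 12 and chromosome 17 clusters (x axis); squares are the 10 members, open circles other keratin genes, orange marks genes called higher, blue lower and grey neither. KRT80, KRT84, KRT5, KRT4 and KRT79 are orange and KRT75 and KRT23 blue, and the fitted value of KRT79 rests on 1 wild-type count.

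Markers of squamous and basal epithelium were counted beside these genes, since KRT4 and KRT5 belong to them. Of 24 such genes 6 were tested, 2 were called higher (KRT4 and KRT5) and 0 lower, beside 12.0% and 12.4% of all tested genes. The 6 had a median log2 fold change of 0.14. At an unadjusted p below 0.05 edgeR gave 1 lower, and DESeq2 and limma voom called 0 lower. Their summed level was 14.7 to 17.5 CPM in the wild-type and 25.7 to 28.5 CPM in the knockout-labelled libraries. KRT4 and KRT5 are part of that sum, and without them it was 9.59 to 13.0 CPM against 9.86 to 12.0 CPM. TP63, the factor that defines basal cells, had 2, 6 and 5 counts against 2, 4 and 1. Other markers below the filter went either way, and those given next were named after their values were seen. Summed over each group, FLG had 15 counts in wild type against 33, KRT14 9 against 19 and DSG3 0 against 6. KRT16 had 12 against 7 and TGM3 10 against 4. These genes were not tested. IVL, LOR, SPRR1A, SPRR2A, SPRR3, CRNN and S100A7, products of cornifying cells, had 0 counts in every library.

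Keratins reach the cell surface through desmosomes and plakins, proteins that tether filaments to junctions and to other cytoskeleton. Of 12 tested genes of this list 4 were called higher and 2 lower, beside 12.0% and 12.4% of all tested genes. The list had a median log2 fold change of 0.11. DSP, which encodes desmoplakin, the main link between desmosomes and keratin, rose from 512 ± 38.5 to 639 ± 51.9 CPM (log2 fold change 0.32, SE 0.07, edgeR adjusted p = 0.000637). DST, a plakin of hemidesmosomes, rose from 35.9 ± 2.21 to 45.6 ± 3.96 CPM and EPPK1, epiplakin, which binds keratin 8 and 18 filaments, from 143 ± 11.3 to 183 ± 23.6 CPM. PLEC, encoding plectin, was called higher as well (log2 fold change 0.21, adjusted p = 0.0162), but not with the replicate block or when wild-type library 1 or knockout-labelled library 2 or 3 was omitted (adjusted p up to 0.145). PKP1, a desmosomal plaque protein best known from skin, fell from 2.84 ± 0.292 to 0.666 ± 0.138 CPM (log2 fold change -2.09, SE 0.33). PPL, encoding periplakin, was called lower (log2 fold change -0.21, adjusted p = 0.0317), but not by DESeq2 (adjusted p = 0.0535), with upper-quartile or total-count scaling, or when wild-type library 3 or knockout-labelled library 1 or 2 was omitted (adjusted p up to 0.225). PLEC and PPL were named after their values were seen.

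Other intermediate filament genes, lamins included, were called lower where they were called. Of 8 tested genes 0 were called higher and 5 lower, beside 12.0% and 12.4% of all tested genes. The 8 had a median log2 fold change of -0.19. DESeq2 and limma voom also called 0 higher, and edgeR gave 0 higher at an unadjusted p below 0.05. The nuclear lamin genes LMNB2 (484 ± 18.6 to 411 ± 17.8 CPM) and LMNA (1047 ± 64.2 to 925 ± 44.7 CPM) were called lower, and so was LMNB1, named after its values were seen (log2 fold change -0.15, adjusted p = 0.0439). LMNB1 lost its call in 9 of 16 other settings, among them the omission of any library except wild-type library 2 (adjusted p up to 0.156). The call of LMNA was lost with upper-quartile scaling, with the replicate block and without wild-type library 1 or 3 or knockout-labelled library 1 or 3. NES, the filament gene of progenitor cells, fell from 3.01 ± 0.358 to 1.45 ± 0.215 CPM. BFSP1, a filament gene of the eye lens, fell from 5.10 ± 0.441 to 3.18 ± 0.335 CPM, but was not called without knockout-labelled library 3 (adjusted p = 0.0533). VIM, the main filament gene of mesenchymal cells, had 1, 0 and 0 counts in wild type and 1, 0 and 0 in the knockout-labelled libraries.

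Among 33 tested genes whose proteins bind or modify keratins 8 and 18, 2 were called higher and 6 lower. Over all tested genes 24.3% were called in either direction, 12.0% higher and 12.4% lower. The median log2 fold change of the 33 was -0.03. HSPB1, a small heat shock protein that associates with filaments, fell from 140 ± 17.8 to 116 ± 5.73 CPM, but was not called without library 3 of either group. KLHL24, a ubiquitin ligase adaptor for keratin turnover in skin, rose from 22.7 ± 0.876 to 30.8 ± 1.76 CPM, and the ubiquitin ligase gene TRIM21 rose from 23.4 ± 2.44 to 32.4 ± 1.97 CPM.

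Of 31 tested transcription factors described for keratin genes, 5 were called higher and 5 lower, beside 12.0% and 12.4% of all tested genes. The 31 had a median log2 fold change of -0.06. JUN and JUNB, subunits of AP-1, rose from 68.2 ± 3.17 to 120 ± 4.65 CPM and from 226 ± 11.2 to 314 ± 40.4 CPM. FOS and FOSL1, which also encode AP-1 subunits, were lower but not called, and were named after their values were seen. FOS went from 159 ± 30.1 to 88.0 ± 24.0 CPM with separate ranges (log2 fold change -0.85, edgeR adjusted p = 0.105). FOSL1 had a log2 fold change of -0.17 (edgeR adjusted p = 0.117), and its groups overlapped. KLF6, a zinc finger factor, rose from 132 ± 5.29 to 211 ± 4.15 CPM. CDX1, an intestinal homeobox factor, fell from 189 ± 14.1 to 118 ± 8.70 CPM (log2 fold change -0.67, SE 0.06).

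The RefSeq promoter table (GRCh38.p14) held an entry for 3 of the 10 members, KRT8, KRT10 and KRT20, and not for KRT7, KRT15, KRT17, KRT18, KRT19, KRT23 or KRT80. The KRT20 promoter is shown because KRT20 is the gut keratin and CDX1, a CDX factor of the gut, was called lower. CDX2, named after its values were seen, was not called (log2 fold change -0.11, edgeR adjusted p = 0.231). KRT20 was not called either, and a link between CDX factors and KRT20 was not tested. Capitals mark TTTAT, the core searched for CDX factors, on either strand.
KRT20, chr17:40885193-40885492, minus strand: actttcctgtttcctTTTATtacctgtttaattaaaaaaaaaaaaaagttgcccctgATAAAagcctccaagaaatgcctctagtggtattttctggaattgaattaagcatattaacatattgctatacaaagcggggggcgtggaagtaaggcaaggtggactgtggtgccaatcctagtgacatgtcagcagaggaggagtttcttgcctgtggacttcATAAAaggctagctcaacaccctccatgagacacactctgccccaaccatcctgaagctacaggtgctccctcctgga
The KRT8 entry (chromosome 12, 52926420 to 52926719) lies inside the deposited span of KRT8, which ends at 52949954 on the minus strand, and so belongs to 1 of several annotated starts of that gene. TTTAT occurred 3 times in these 300 bases, 4 times in the KRT10 promoter and 0 times in this KRT8 entry; 34.9% of all promoters of this length hold it. TATAAA (the TATA box, whose reverse strand holds TTTAT) was found in the KRT10 promoter and in 11.5% of all promoters, and CCACCC (a KLF motif) in the KRT10 promoter and in 34.3%. TGANTCA (the AP-1 motif, 7.71% of all promoters) and GGGCGG (the GC box, 45.0%) were found in none of these 3 entries. All were searched on both strands, and a match is only a description of the letters.

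**Figure D4:**
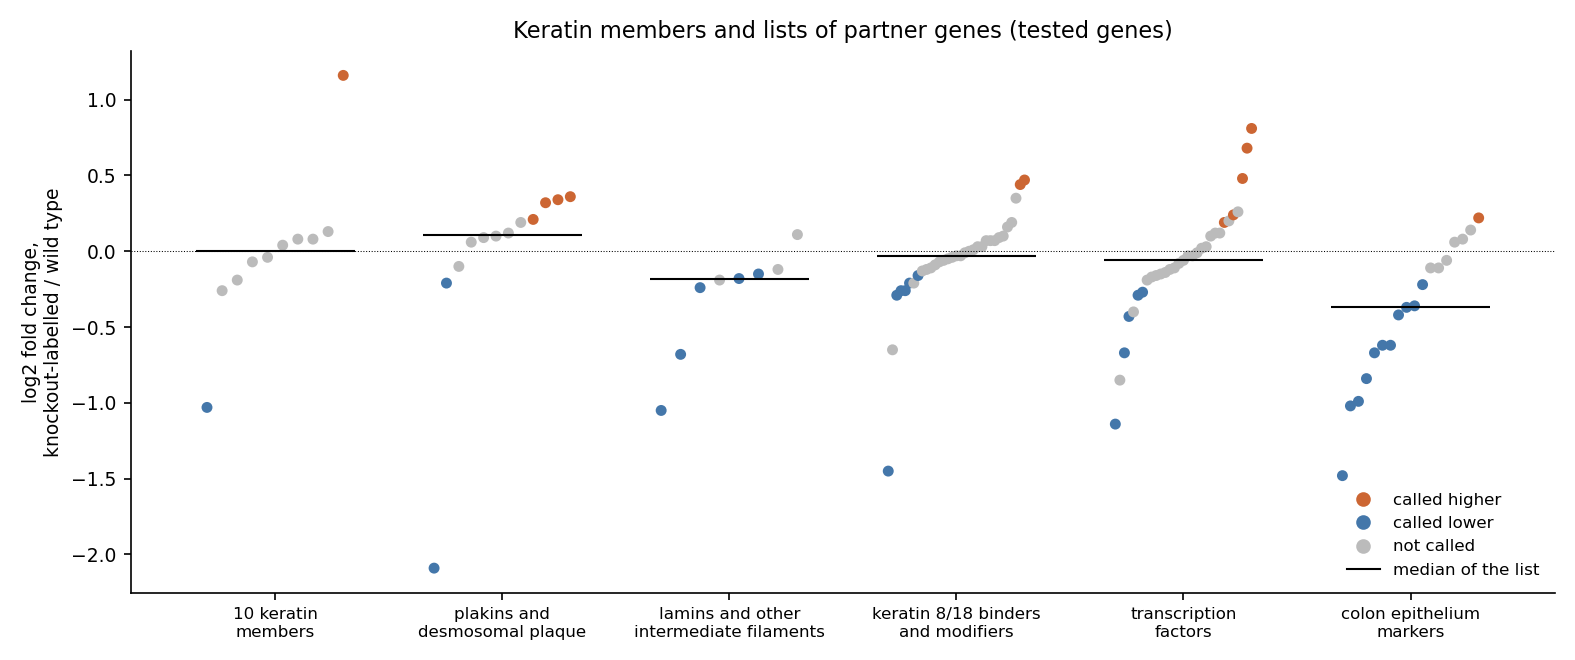
Log2 fold change (y axis) of the 10 members and of the tested genes of 5 lists (x axis), each point 1 gene, orange where called higher, blue where called lower and grey where not called, with a black line at each median. The medians are 0.00 for the members, 0.11, -0.19, -0.03 and -0.06 for the plakin, filament, binder and transcription factor lists, and -0.37 for the colon markers.

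The labelled tissue was checked with colon epithelium markers, all 18 of which passed the filter. Their summed level was 3592 to 3976 CPM in wild type and 3409 to 3539 CPM in the knockout-labelled libraries. Of the 18, 1 was called higher and 11 lower, beside 12.0% and 12.4% of all tested genes. The markers had a median log2 fold change of -0.37, while KRT8, KRT18 and KRT19 were not called. CEACAM5, an adhesion protein of colon epithelium, fell from 31.1 to 11.1 CPM in the means (log2 fold change -1.48, SE 0.11), GPA33, an intestinal surface antigen, from 270 ± 11.1 to 176 ± 8.53 CPM, and MUC2, the main intestinal mucin, from 31.5 ± 1.94 to 15.8 ± 3.90 CPM. Keratin 20 was not called although it is a marker of the same tissue, and its interval is wide.

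Markers of other cell types were low, and their calls stand beside 12.0% higher and 12.4% lower over all tested genes. Fibroblast and muscle markers had 5 of 14 tested, 2 called higher and 0 lower, and summed to 8.13 to 10.1 CPM in wild type and 16.2 to 19.0 CPM in the knockout-labelled libraries. COL3A1, a fibrillar collagen, rose from 0.313 ± 0.0900 to 5.62 ± 0.452 CPM. COL3A1 passed the filter only through the knockout-labelled libraries, and CD14, named below, only through the wild-type ones. TAGLN, a smooth muscle protein, rose from 2.86 ± 0.537 to 4.73 ± 0.607 CPM (edgeR adjusted p = 0.0131), but was not called by DESeq2, nor on omitting wild-type library 2 or knockout-labelled library 1, and COL1A2, PDGFRA and POSTN were at 0. Leukocyte markers had 2 of 15 tested, 0 called higher and 1 lower (CD14, 3.70 ± 0.962 to 0.388 ± 0.140 CPM), and summed to 4.88 to 6.58 and 1.43 to 2.81 CPM, with PTPRC at 0. Endothelial markers had 1 of 8 tested (ERG, adjusted p = 0.517) and summed to 3.87 to 4.09 and 2.71 to 4.24 CPM, with PECAM1 at 0. In these 3 lists DESeq2 and limma voom likewise called 0 in each direction where edgeR called 0, and edgeR gave 0 there at an unadjusted p below 0.05. Whether other cells had a part in the keratin changes was not tested.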

How the data were processed

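The authors deposited raw read counts per gene; the submitters' processing notes name HISAT2 2.0.5 and featureCounts 1.5.0-p3. Not given in the sources used here were the annotation, the strand setting and the treatment of multiply mapping reads. The notes list mm10, but the identifiers are human, and all 10 members have the GRCh38 coordinates of GENCODE release 29. The deposited gene length equals the union of their exons there. The 232 rows without a gene name were left out.

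Counts were tested with edgeR 4.0.16 (quasi-likelihood, TMM, filterByExpr with a minimum count of 10, robust; two-sided) in R 4.3.3, 3 libraries against 3, with Benjamini-Hochberg adjustment over all genes tested. Intervals are 95%. Alternatives were other scalings and filters, DESeq2 1.42.0, limma 3.58.1 (voom), protein-coding genes alone, a test against 1.5-fold, a block for replicate number, and leaving out each library. Steps were tested on simulated data. Members and lists were chosen with earlier results of these data known. From each of 9 lists, up to 4 called genes by smallest p were named, or else the most abundant. Also named were keratins that passed the filter, pseudogenes and overlapping genes. Every list's medians and counts are descriptions. Replicates of a group differed by more than sampling noise. Some items are not reported here.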

Additional observations from a re-analysis of the deposited data

How the results depend on the processing

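Of the 10 members, 2 were called in the main test. Under DESeq2, with the replicate block and against a 1.5-fold change 1 member was called, KRT80, and leaving out each library in turn gave 1 to 2. Where 2 were called without a filter on low counts or without wild-type library 1 or 2, the second was KRT17, not KRT23. The number of genes called was 3735, 795 against a 1.5-fold change, 2953 with the replicate block and 2710 to 4590 on leaving out a library. Replicate numbers did not pair the libraries: same-numbered libraries correlated at 0.02, -0.08 and -0.10 in their deviations from the group means, and not every library correlated best with its own number.

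Among the genes followed, signs turned only where a library was left out, which leaves 2 against 3; the ranges cover all settings. KRT15 was -0.13 without knockout-labelled library 1 (range -0.13 to 0.28), KRT18 -0.01 without wild-type library 2 (-0.01 to 0.09), KRT19 0.02 without wild-type library 3 (-0.11 to 0.02) and KRT20 0.03 without knockout-labelled library 2 (-0.33 to 0.03). KRT13 ranged from -0.29 to 0.17, the neighbouring genes ATG101 from -0.09 to 0.07 and TMEM99 from -0.04 to 0.20, and the copies KRT8P33 from -0.43 to 0.31 and KRT8P46 from -0.49 to 0.36.

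The pool values are differences, knockout-labelled minus wild type. Without division by length, the share of KRT19 differed by -0.843 percentage points and that of KRT23 by -0.00869, and type II over type I by 0.129. With principal transcript lengths, the share of KRT80 differed by 0.139, KRT19 by -0.933 and KRT23 by -0.00712 percentage points, and the ratio by 0.0988. Depth limits KRT20, KRT23 and KRT15, with 10 to 68 counts per library.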

Other observations

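Below the filter on low counts stood 36 of the 45 protein-coding keratin genes outside the 10 members, of which 25 had any count. Together they had 60 counts in wild type and 153 with the knockout label, and no gene had more than 16 counts in a library. The genes named here were chosen after their values were seen. Each has at most 3 counts over the wild-type and at least 10 over the knockout-labelled libraries. That rule admits only genes higher in the second group, so the ratios below describe the chosen genes and test nothing. KRT31, a type I hair keratin of the chromosome 17 cluster, had 0 counts in wild type against 14, 4 and 16. With a floor of 3 counts over the wild-type group the ratio was 11.2, and its exact 95% lower limit from the counts was 8.62. KRT32, another hair keratin, had 0 counts in wild type and 2, 6 and 6 in the knockout-labelled libraries. With the same floor the ratio was 4.61, and the exact lower limit was 3.28. KRT36 had 1, 0 and 2 counts in wild type and 6, 10 and 3 in the knockout-labelled libraries, a ratio of 6.26 (exact 95% interval 1.84 to 33.0). These floors and intervals cover counting error only, and these genes were below the filter of the test across libraries.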
